A study of Mus musculus with 14 samples.

Results

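The genes described here are the 10 that move calcium between the cytosol and the endoplasmic or sarcoplasmic reticulum: the SERCA pumps Atp2a1, Atp2a2 and Atp2a3, the pump inhibitor Sln, the ryanodine receptors Ryr1, Ryr2 and Ryr3, and the IP3 receptors Itpr1, Itpr2 and Itpr3. They were taken by symbol from 24421 gene rows, and each has a single row. RNA was sequenced from 14 mouse samples of a study of actomyosin tension and uncoupled respiration in fat. Of these, 8 were tissue of C57BL/6N mice aged 22 weeks that ate a diet with 60% of calories from fat for 14 weeks at ambient temperature, 4 of brown adipose tissue (BAT) and 4 of perigonadal white adipose tissue (WAT). The other 6 were a BAT cell line, differentiated in culture with insulin, T3, dexamethasone, IBMX and rosiglitazone. From day 7 after induction, 3 samples were given 100 µM blebbistatin, an inhibitor of myosin II motors, and 3 its vehicle DMSO, for 24 h. All tissue donors had the fat-rich diet, so no lean group stands beside them. Replicates are numbered, but nothing says that they came from separate animals or cultures, so p-values reflect the scatter among the sequenced samples, part of which may be technical.

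SERCA pumps use ATP to return calcium to the reticulum, and ryanodine and IP3 receptors let it out again. Sarcolipin, the product of Sln, binds the pump so that ATP is spent with less calcium moved. Cycling of calcium through pump and release channel is known as a source of heat in muscle and has been studied in beige fat, where it does not need UCP1. Atp2a1 encodes SERCA1 of fast muscle fibres. Atp2a2 encodes SERCA2a of heart and slow muscle and SERCA2b of most other cells, by a choice of last exons. Atp2a3 encodes SERCA3, known from blood and endothelial cells. Ryr1 is the release channel of skeletal muscle, Ryr2 that of heart, and Ryr3 is found at low levels in many tissues. IP3 receptors open on the IP3 that phospholipase C makes after hormone or transmitter signals.

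Of the 8 members with enough reads to test between the tissues, 6 were higher in BAT (Atp2a1, Atp2a2, Ryr1, Ryr2, Itpr1 and Itpr2) and 2 were lower in BAT (Atp2a3 and Itpr3). Calls are at an adjusted p under 0.05 by limma on log2(CPM + 0.5), where CPM is the read count scaled to the library's TMM-normalised gene total. By the same rule 62.3% of all 12754 genes tested were called, 30.7% higher and 31.6% lower in BAT, so a call alone says little here and the sizes matter more. Sln and Ryr3 fell below the filter on low counts. Atp2a1 passed that filter only through its BAT libraries: no WAT library reached the 2.07 CPM it asks for. In the cells 6 members could be tested, and none was called.

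The libraries differ in depth. BAT libraries held 1014959 to 2335058 reads in genes and WAT libraries 6859404 to 16091372. As a percent of the mapped reads that the deposited tables imply, these were 19.1% to 42.3% in BAT and 71.1% to 83.0% in WAT. Blebbistatin libraries held 10920307 to 12978198 reads in genes and vehicle libraries 10685378 to 14176846. The 10 brown adipocyte markers summed to 20050 to 29900 CPM in BAT and 28.8 to 43.6 CPM in WAT, so the tissue labels match. In the BAT cell line they summed to 210 to 276 CPM with blebbistatin and 185 to 385 CPM with vehicle. The 10 general adipocyte markers summed to 11400 to 16430 CPM and 11000 to 15750 CPM in the same cells.

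BAT 4 stands apart. The 12 markers of fast skeletal muscle, such as the myosins Myh1 and Myh4, summed to 2685, 4713, 2270 and 34390 CPM in BAT 1 to 4, while WAT libraries lay at 35.5 to 51.3 CPM. The 11 markers of slow muscle and heart summed to 117, 353, 319 and 3074 CPM in BAT 1 to 4 and to 3.49 to 5.04 CPM in WAT. All 12 fast markers were higher in BAT, and none of either list was at 0 in every library of a tissue. Results below are therefore given with and without BAT 4 where it moves them.

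**Figure D1:**
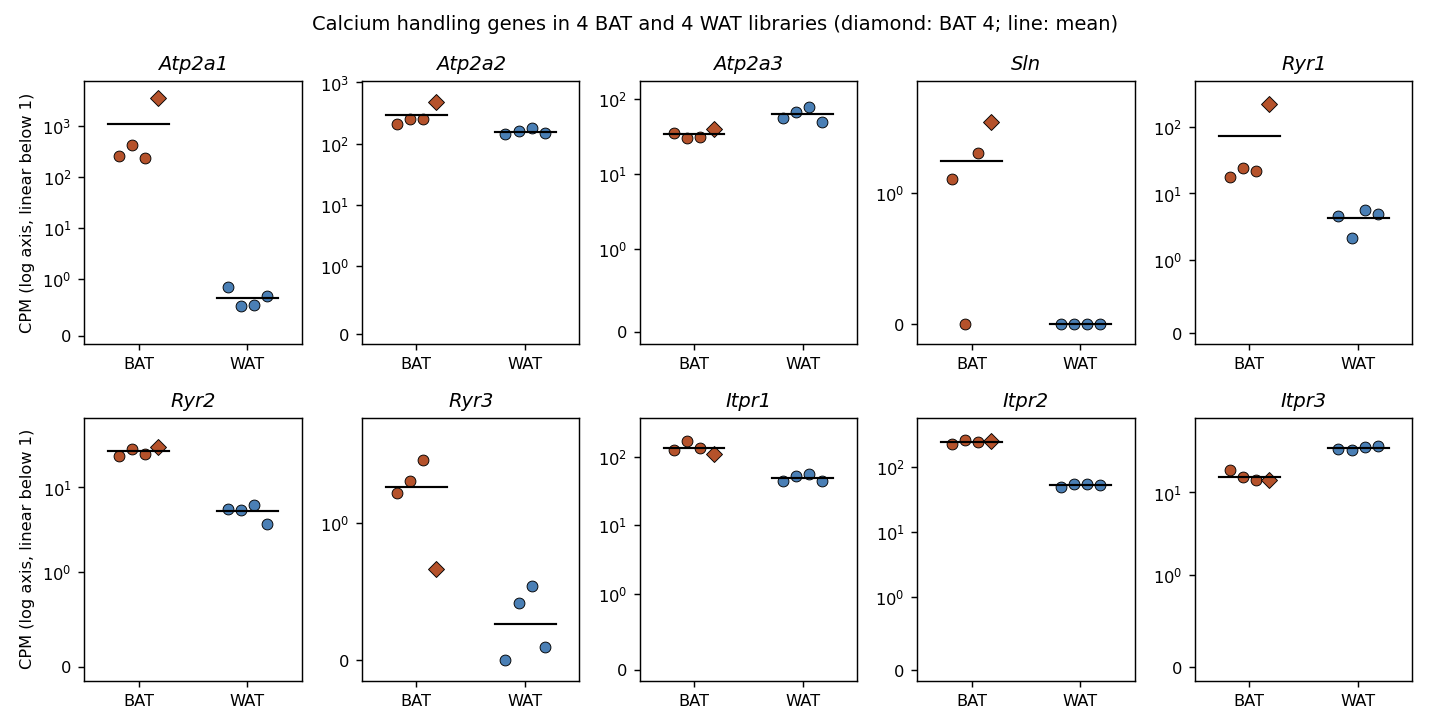
Expression of the 10 genes in the 4 BAT and 4 WAT libraries, as CPM on an axis that is logarithmic above 1 and linear below it. Points are libraries, the diamond is BAT 4 and lines are group means; Atp2a1 and Ryr1 are highest in BAT 4, at 3533 and 228 CPM, while Itpr2 lies between 222 and 256 CPM in all 4 BAT libraries.

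Atp2a1, the fast fibre pump, showed the widest gap between the tissues. It read 267, 421.5, 238 and 3533 CPM in BAT 1 to 4, against 0.868, 0.526, 0.541 and 0.698 CPM in WAT 1 to 4. The groups did not overlap, and the lowest BAT library held 219 reads where WAT libraries held 4 to 15. The log2 fold change was 8.91 (SE 0.73, adjusted p = 3.23e-06), a 482-fold difference with a 95% interval of 155 to 1499. Without BAT 4 the log2 fold change was 8.003 (adjusted p = 5.09e-09). Because WAT values lie near the pseudocount of 0.5 CPM, the size depends on the scale, and edgeR's quasi-likelihood test gave log2 10.62 (adjusted p = 0.00081). Atp2a1 lies on the minus strand of chromosome 7 at 133589374 to 133606587 (mm9), and its row shares 48 bases with the end of Rabep2 on the other strand, where reads cannot be told apart unless counting used strand, which is not stated.

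Atp2a1 kept a near constant ratio to the fast muscle markers across BAT libraries. It came to 99.3, 89.4, 105 and 103 CPM per 1000 CPM of summed fast markers in BAT 1 to 4. WAT libraries gave 24.5, 12.9, 14.6 and 13.6 on the same measure. The WAT figure depends on which markers are summed. BAT 1 to 3 averaged 19.1 times WAT for Acta1 and 17.0 times for Myl1. For the other fast markers they averaged 77.2 to 4545 times WAT, and for Atp2a1 469 times. BAT 4 read 11.4 times the mean of the other BAT libraries for Atp2a1, and the 12 fast markers read 6.34 to 12.3 times (median 10.8). Over all 12754 genes tested the median of this ratio was 0.995, and 0.674% of genes reached 10. The part of muscle RNA in the Atp2a1 result was not tested, and in bulk tissue more cells of a type and more RNA per cell cannot be told apart. The genes whose profile over the 8 tissue libraries lay nearest to that of Atp2a1 were A930016O22Rik, Mylpf and Myh1, at root mean square differences of 0.28, 0.36 and 0.39 on the log2 scale. Mylpf and Myh1 are on the fast marker list.

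Ryr1, the skeletal muscle release channel, tracked BAT 4 as well. It read 17.6, 24.3, 21.7 and 228 CPM in BAT 1 to 4, against 4.52, 2.10, 5.55 and 4.88 CPM in WAT 1 to 4. All BAT libraries lay above all WAT libraries, and BAT 4 lay 10.7 times above the mean of the other BAT libraries. The log2 fold change was 3.10 (SE 0.72, adjusted p = 0.0038), and 2.21 without BAT 4 (adjusted p = 1.08e-04). EdgeR's quasi-likelihood test gave log2 4.09 (adjusted p = 0.0118), and on deposited RPKM the call was lost (log2 1.42, adjusted p = 0.0768). Set against the fast muscle markers, Ryr1 behaved unlike Atp2a1: it came to 6.56, 5.16, 9.57 and 6.62 CPM per 1000 CPM of fast markers in BAT and to 127, 51.7, 149 and 95.2 in WAT. WAT held 20 to 78 Ryr1 reads a library, beside fast marker sums of 35.5 to 51.3 CPM. These WAT ratios depend on the markers summed, as they do for Atp2a1. The nearest profiles were those of Jph2, a junctophilin that ties the reticulum to the cell surface, Ankrd23 and Eef1a2, at 0.33, 0.38 and 0.46. Ryr1 lies on the minus strand of chromosome 7 at 29788359 to 29910170 (mm9).

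The bases upstream of these 2 genes are shown because both moved with the muscle markers in BAT 4. They are the 250 bases before the RefSeq start on the minus strand (GRCm38.p6), with E-boxes (CANNTG, a motif that reads the same on both strands and that muscle regulators such as MyoD bind) in capitals.
Atp2a1, chr7:126463074-126463323: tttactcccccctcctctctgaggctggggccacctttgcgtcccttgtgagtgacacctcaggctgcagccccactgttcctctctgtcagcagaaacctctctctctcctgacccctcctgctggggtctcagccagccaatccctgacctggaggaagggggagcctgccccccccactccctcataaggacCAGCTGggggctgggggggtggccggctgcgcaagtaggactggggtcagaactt
Ryr1, chr7:29125152-29125401: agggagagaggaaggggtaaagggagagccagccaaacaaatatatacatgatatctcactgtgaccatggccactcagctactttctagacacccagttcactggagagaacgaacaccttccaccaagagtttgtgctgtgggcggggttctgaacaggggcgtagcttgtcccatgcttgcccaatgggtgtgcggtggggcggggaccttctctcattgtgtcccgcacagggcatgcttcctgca
The Atp2a1 window holds 1 E-box, a CAGCTG that begins 55 bases before the start, and the Ryr1 window holds none. Among 32851 RefSeq promoters of the same length 66.2% hold a CANNTG and 13.0% a CAGCTG. An E-box of some kind is thus common, while the CAGCTG form is held by a minority. Whether it matters for Atp2a1 was not tested. Promoter sequences were matched for 6 of the 10 genes.

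**Figure D2:**
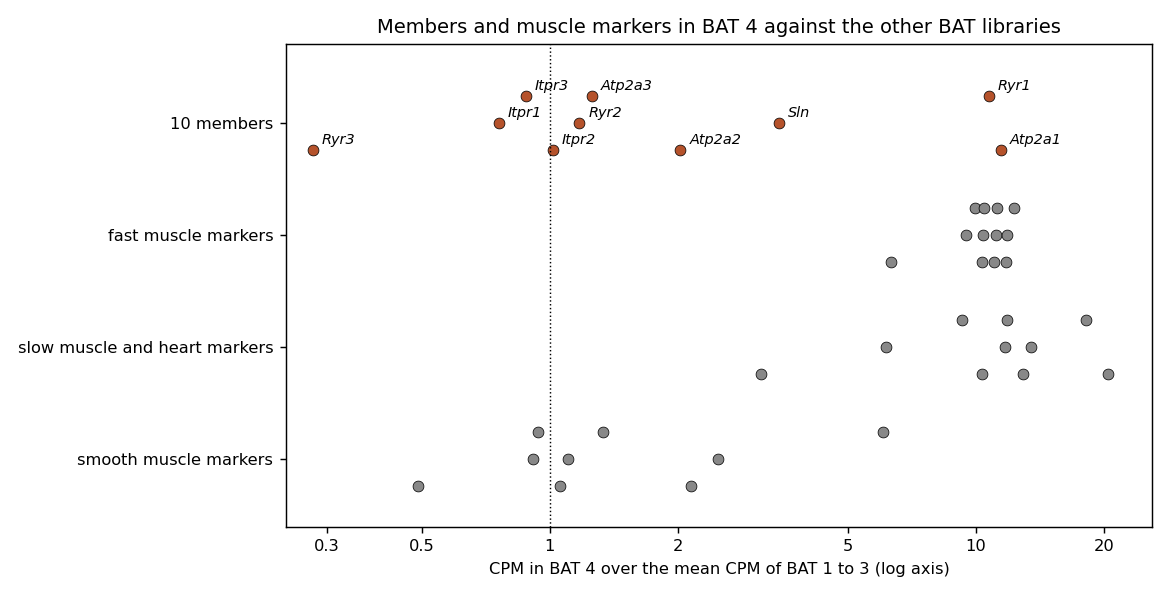
Ratio of CPM in BAT 4 to the mean of BAT 1 to 3 (log axis) for the 10 genes and for 3 muscle marker lists, 1 point per gene. Atp2a1 and Ryr1, at 11.4 and 10.7, lie among the fast muscle markers, Atp2a2 lies at 2.02, and the 3 IP3 receptors lie between 0.759 and 1.02.

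Sln, which encodes sarcolipin, was barely detected. BAT 1 to 4 held 3, 0, 2 and 6 reads, against 0 reads in each WAT library. The groups overlap at 0. The 11 pooled BAT reads put it at 1.69 CPM. That is 25.0 times the limit that 3 counts over the pooled WAT libraries would set, without the counting error of the BAT reads. BAT 4 held 6 of these reads and stood at 4.02 CPM, against a mean of 1.16 CPM in BAT 1 to 3. The authors' deposited table lists Sln as higher in BAT (log2 6.33, adjusted p = 0.00178), and without the filter limma gave log2 1.86 (adjusted p = 0.0292). BAT 4, with the most muscle transcripts, also held the most Sln reads, but the counts are small and differences among BAT libraries were not tested.

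Ryr2, the release channel known from heart, was higher in BAT without following BAT 4. It read 23.4, 28.7, 25.0 and 30.1 CPM in BAT 1 to 4, against 5.62, 5.47, 6.23 and 3.69 CPM in WAT 1 to 4. The BAT libraries lay close together and all above WAT. The log2 fold change was 2.26 (SE 0.21, adjusted p = 1.70e-06), and BAT 4 was 1.17 times the mean of the other BAT libraries, while the slow muscle and heart markers were 3.13 to 20.4 times (median 11.8). The BAT values rest on 23 to 53 reads a library, and on deposited RPKM the call was lost (log2 0.66, adjusted p = 0.0758). The nearest profiles were those of Pcyt2, Hey1 and Pgm2, at 0.12, 0.13 and 0.14.

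Ryr3 was at the edge of detection. It had 4, 4, 3 and 1 reads in BAT 1 to 4, against 0, 4, 4 and 1 reads in WAT 1 to 4. Scaled for depth these were 0.669 to 3.26 CPM in BAT and 0 to 0.541 CPM in WAT, which do not overlap, although the lowest BAT value is a single read. Pooled, 12 BAT reads gave 1.85 CPM and 9 WAT reads 0.204 CPM, a ratio of 9.08. Without BAT 4 the gene passed the filter, through BAT libraries alone since no WAT library held over 0.541 CPM, so the log2 of 1.94 (adjusted p = 0.00248) given then comes from a gene chosen by the tissue where it is high. The authors' deposited table gives log2 2.74 (adjusted p = 0.00644). Within the ryanodine receptors, by RPKM, which allows for transcript length, Ryr1 made up 43.3% to 46.1% of the family in BAT 1 to 3, 89.0% in BAT 4 and 27.9% to 58.4% in WAT.

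Atp2a2, the pump gene of most cells, was modestly higher in BAT by its total reads. It read 208, 249, 254 and 480 CPM in BAT 1 to 4, against 141, 159, 178 and 150 CPM in WAT 1 to 4. The groups did not overlap, and BAT 4 was 2.02 times the mean of the other BAT libraries. Fitted by limma, the log2 fold change was 0.85 (SE 0.22, adjusted p = 0.00515), and 0.56 without BAT 4 (adjusted p = 0.00434). Its nearest profiles were those of Pick1, Per2 and Tigar, at 0.12 to 0.13.

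The call for Atp2a2 depends on which transcript is counted, and its direction on the scale used. In the tissue count table the gene is represented by NR_027838, a transcript with 5704 exonic bases at 122903522 to 122952234 of chromosome 5, minus strand (mm9). In the RPKM table it is represented by NM_001110140, the SERCA2b transcript, with 4480 bases. On deposited RPKM, Atp2a2 read 11.7, 14.3, 7.80 and 15.1 in BAT 1 to 4, against 21.7, 28.5, 32.7 and 26.1 in WAT 1 to 4, and was called lower in BAT (log2 -1.18, adjusted p = 0.00181). Over all genes tested, the median on RPKM was itself -1.51 on the log2 scale. With RPKM centred on library medians the gene was at log2 0.39 and was not called (adjusted p = 0.0719). Counting reads on NM_001110140 alone and keeping the CPM scale gave log2 0.35, also not called (adjusted p = 0.102).

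The bases that NR_027838 has and NM_001110140 lacks lie in 2 stretches in the GENCODE M21 annotation of GRCm38: 791 bases are the last exon of the SERCA2a transcript NM_009722, and 448 lie downstream of the SERCA2b end. The 2 forms part at a base where an exon of SERCA2a ends but which lies inside the last exon of SERCA2b. From there SERCA2a reaches its stop after 14 bases, and SERCA2b reads on in the same exon into a longer tail. The 30 shared coding bases are in lower case and the bases of each form in capitals, on the minus strand of chromosome 5, with the last shared base at 122457303.
SERCA2a: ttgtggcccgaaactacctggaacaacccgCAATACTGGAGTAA
SERCA2b: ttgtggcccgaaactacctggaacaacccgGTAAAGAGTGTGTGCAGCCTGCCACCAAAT

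The share of Atp2a2 reads inside the SERCA2b transcript was 64.5%, 67.4%, 79.5% and 49.5% in BAT 1 to 4, against 89.9%, 91.3%, 92.4% and 91.0% in WAT 1 to 4. Every BAT library lay below every WAT library. BAT averaged 65.2% ± 12.3 and WAT 91.2% ± 1.01 (SD, n = 4 each), a difference of -25.9 percentage points (p = 0.0286 in a two-sided exact permutation test, the lowest value possible with 70 splits). BAT 4 was lowest, at 355 of 717 reads (95% Wilson interval 45.9% to 53.2%), and BAT 3 was highest, at 186 of 234 reads (73.9% to 84.2%). The intervals cover counting error only. Slow muscle and heart markers summed to 117, 353, 319 and 3074 CPM in BAT 1 to 4, and their relation to the share was not tested. This readout was noticed after the values were seen, and its test is therefore a description of these libraries.

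Other genes whose 2 tables use different transcripts were set beside it. Of 3483 such genes, 171 had at least 200 reads in every tissue library, Atp2a2 among them. None of the other 170 shifted by as much in either direction. Their shifts ran from -20.2 to 17.1 points with a median of 0.32. These genes were not matched on how many bases their 2 transcripts differ by, which bounds how far a gene can shift. In CPM, reads inside NM_001110140 were 134, 168, 202 and 238 in BAT 1 to 4, against 127, 145, 164 and 136 in WAT 1 to 4, so the groups overlapped. Reads outside it were 74.0, 81.2, 52.0 and 242 CPM in BAT 1 to 4, against 14.3, 13.8, 13.6 and 13.5 CPM in WAT 1 to 4. The outside part was high in all BAT libraries, and highest in BAT 4. Per kilobase, reads outside were 2.02, 1.77, 0.9445 and 3.73 times those inside in BAT 1 to 4. In WAT 1 to 4 they were 0.410, 0.348, 0.302 and 0.361 times. Why the outside part was denser than the inside part in 3 BAT libraries was not tested. Since the outside stretches also hold sequence downstream of the SERCA2b end, they do not count SERCA2a alone. Slow muscle and heart, where SERCA2a is the main form, were represented in BAT by the marker sums given above, and their part in this share was not tested.

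**Figure D3:**
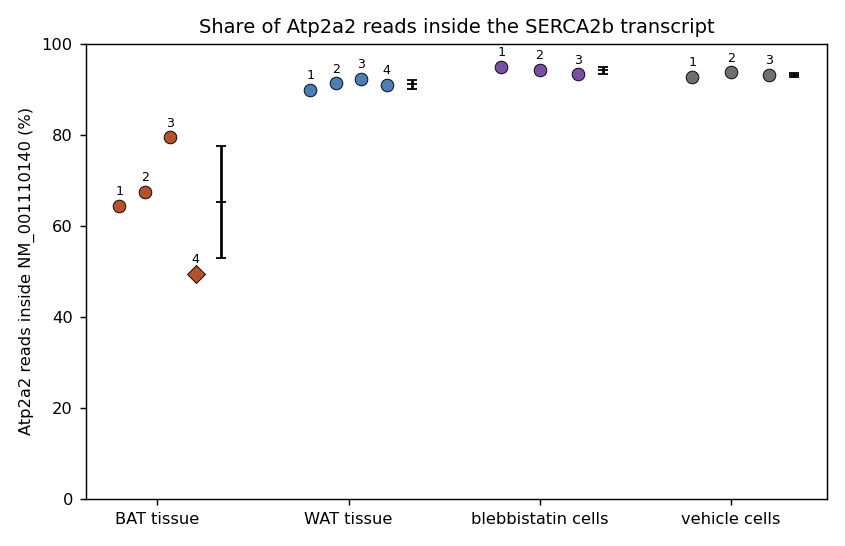
Percent of reads of the Atp2a2 row that fall inside the SERCA2b transcript NM_001110140, by library, in BAT and WAT tissue and in blebbistatin and vehicle cells. Numbers are replicates, the diamond is BAT 4 and bars are mean ± SD; BAT libraries lie between 49.5% and 79.5% and every other library between 89.9% and 94.9%.

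Atp2a3, which encodes SERCA3, was lower in BAT. It read 34.8, 29.8, 31.5 and 40.2 CPM in BAT 1 to 4, against 56.3, 67.0, 79.4 and 49.0 CPM in WAT 1 to 4. The groups did not overlap. BAT lay below WAT by limma (log2 -0.86, SE 0.17, adjusted p = 8.27e-04), on 29 to 79 reads in BAT libraries and 492 to 972 in WAT libraries. SERCA3 is known from blood cells and endothelium. The 12 macrophage markers, all lower in BAT, summed to 499 to 1281 CPM in BAT and 12930 to 18940 CPM in WAT, and the 13 lymphocyte and platelet markers to 41.5 to 60.8 CPM in BAT and 220.5 to 268 CPM in WAT, with 2 of the 6 that could be tested called lower. The 10 endothelial markers, 8 of them higher in BAT, summed to 1434 to 1730 CPM in BAT and 422 to 528 CPM in WAT. Their part in the Atp2a3 result was not tested. The nearest profiles were those of Gtf3c1, Plin4 and Dst, at 0.11 to 0.12.

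Set per length, the pump family had another leading member in each tissue. Atp2a1 made up 57.3% to 73.7% of the summed SERCA RPKM in BAT 1 to 3 and 94.4% in BAT 4, while in WAT it made up 0.293% to 0.620%. Atp2a2, counted on its SERCA2b transcript, made up 4.84% to 37.1% in BAT and 67.6% to 73.6% in WAT. Atp2a3 made up 0.802% to 6.59% in BAT and 25.9% to 32.1% in WAT. The order Atp2a1, Atp2a2, Atp2a3 held in every BAT library, and the order Atp2a2, Atp2a3, Atp2a1 in every WAT library.

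**Figure D4:**
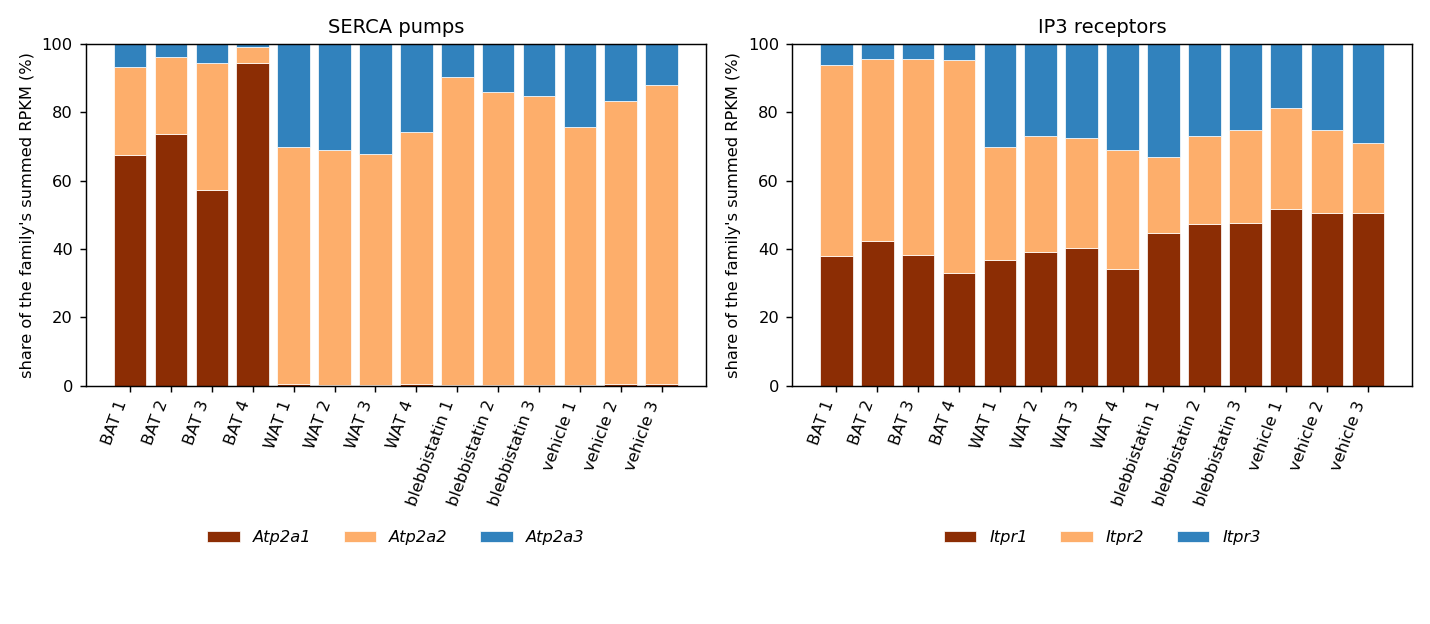
Share of each gene in the summed RPKM of its family (percent, stacked to 100) in every library, SERCA pumps on the left and IP3 receptors on the right. Atp2a1 takes 57.3% to 94.4% of the pump RPKM in BAT and under 1% in all other libraries, and Itpr3 takes 4.26% to 6.11% of the IP3 receptor RPKM in BAT against 27.0% to 31.1% in WAT.

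The IP3 receptors divided between the tissues, and none of them was raised in BAT 4. Itpr2, an IP3 receptor of high affinity known from heart and liver, read 222, 256, 242 and 244 CPM in BAT 1 to 4, against 48.2, 54.2, 53.6 and 52.8 CPM in WAT 1 to 4. The spread within each tissue was small beside the gap. The log2 fold change was 2.19 (SE 0.12, adjusted p = 1.80e-08), a 4.58-fold difference with a 95% interval of 3.84 to 5.46. On deposited RPKM the call was lost (log2 0.65, adjusted p = 0.0682). Its nearest profiles were those of 3 genes for mitochondrial proteins, Mrpl2, Timm44 and Atad3a, at 0.041, 0.092 and 0.092.

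Itpr1, the receptor best known from cerebellar neurons and smooth muscle, was higher in BAT as well. It read 127, 170, 135 and 109 CPM in BAT 1 to 4, against 45.0, 52.4, 56.9 and 44.1 CPM in WAT 1 to 4. BAT 4 was the lowest BAT library, and still above every WAT library. Limma gave a log2 fold change of 1.43 (SE 0.16, adjusted p = 6.89e-06). On deposited RPKM Itpr1 averaged 4.29 in BAT and 4.30 in WAT and was not called (log2 -0.094, adjusted p = 0.805), on a scale whose median gene lay at -1.51. The 9 smooth muscle markers summed to 611, 594, 568 and 1625 CPM in BAT 1 to 4 and to 418 to 521 CPM in WAT. In BAT 4 the desmin gene Des, which skeletal muscle also expresses, made up 1177 CPM of that sum at 6.07 times the other BAT libraries, while the median ratio over the 9 markers was 1.10 and Itpr1 was at 0.759. Its nearest profiles were those of Mto1, 0610009O20Rik and Cdh13, each at about 0.10.

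Itpr3, the receptor of epithelia and of many dividing cells, was lower in BAT. It read 18.5, 15.5, 14.1 and 14.1 CPM in BAT 1 to 4, against 33.4, 32.9, 35.2 and 36.4 CPM in WAT 1 to 4. The groups did not overlap, on 13 to 42 reads in BAT libraries and 260 to 576 in WAT libraries. Limma gave a log2 fold change of -1.13 (SE 0.15, adjusted p = 4.04e-05). The macrophage and lymphocyte sums given above were lower in BAT too, and the endothelial sum was higher. Their part in the Itpr3 result was not tested. The nearest profiles were those of Nagk, Fam172a and Ap2m1, at 0.048 to 0.077.

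As shares of the IP3 receptor RPKM, Itpr2 made up 53.2% to 62.5% in BAT and 32.2% to 34.5% in WAT. Itpr3 made up 4.26% to 6.11% in BAT and 27.0% to 31.1% in WAT. Itpr1 made up 32.9% to 42.5% in BAT and 34.3% to 40.3% in WAT, and these overlapped. In BAT the order was Itpr2, Itpr1, Itpr3 in every library. In WAT Itpr1 and Itpr2 did not differ beyond their spread, at 3.50 to 5.18 and 3.15 to 4.14 RPKM, and Itpr3, at 2.85 to 3.52 RPKM, overlapped Itpr2 in range but lay below it in each of the 4 libraries.

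Genes around these pumps and channels were followed on 9 lists. Each list's counts are to be set beside the shares over all genes tested, 30.7% higher and 31.6% lower in BAT. Among 16 tested genes of the ryanodine receptor complex and the muscle calcium store, 10 were higher in BAT, 5 lower and 1 not called (median log2 1.86, against -0.05 over all genes tested). Pvalb, the calcium buffer parvalbumin of fast fibres, averaged 458 ± 637 CPM in BAT and 5.97 ± 2.73 CPM in WAT (SD, n = 4 each), a log2 fold change of 5.30 (adjusted p = 1.43e-04). Casq1, the calsequestrin of fast fibres, averaged 121 ± 157 CPM in BAT and 1.79 ± 0.505 CPM in WAT (log2 4.98, adjusted p = 6.96e-05). Both followed BAT 4, at 10.1 and 8.36 times the other BAT libraries, and came to log2 4.42 and 4.17 without it. Fkbp1b, which stabilises the closed channel, was lower, at 1.02 ± 1.32 CPM in BAT and 8.25 ± 2.55 CPM in WAT (log2 -2.94, adjusted p = 8.49e-04), and its value without BAT 3 and BAT 4 together was log2 -1.82. Asph, whose gene also makes junctin, was lower at 45.1 ± 6.64 CPM in BAT and 177 ± 26.1 CPM in WAT (log2 -1.96, adjusted p = 3.61e-07). Casq1 reached the filter's 2.07 CPM in 4 BAT libraries and 1 WAT library, and Fkbp1b in 1 BAT library and 4 WAT libraries. Each thus passed through the tissue where it is high, and the counts on this list include such genes. Without BAT 4 these counts stood at 10 and 5 and the list's median at log2 1.23.

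The channel that opens ryanodine receptors in muscle behaved alike. Of 8 tested genes of the triad calcium channel, 6 were higher in BAT, 1 lower and 1 not called (median log2 1.35), and 5 were higher without BAT 4 (median log2 0.88). Cacna1s, its pore, averaged 65.3 ± 96.6 CPM in BAT and 0.131 ± 0.120 CPM in WAT, and Stac3, which couples it to Ryr1, averaged 23.1 ± 32.6 CPM in BAT and 0.361 ± 0.196 CPM in WAT. Their log2 fold changes were 5.54 and 3.78 (adjusted p = 1.11e-04 and 9.34e-04), and 4.58 and 2.89 without BAT 4, with WAT means under the pseudocount. No WAT library reached the filter's 2.07 CPM for either gene, so both were tested because of their BAT values. Without BAT 3 Cacna1s was at log2 6.21. Cacnb3, a channel subunit of nerve and other cells, was lower (log2 -0.81, adjusted p = 0.0218), a call lost without WAT 2 or WAT 4 (adjusted p = 0.0655 and 0.0617) and on centred RPKM (adjusted p = 0.0535).

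The small regulators and partners of SERCA went both ways. Of 7 tested, 3 were higher, 3 lower and 1 not called. Hrc, a calcium binding protein of the muscle store, averaged 88.5 ± 128 CPM in BAT and 0.0579 ± 0.116 CPM in WAT, 11.3 times higher in BAT 4 than in the other BAT libraries (log2 6.36, adjusted p = 7.80e-06, and 5.48 without BAT 4). No WAT library reached the filter for Hrc, so it entered through BAT alone. S100a1, a calcium sensor that binds the pump and Ryr channels, averaged 600 ± 217 CPM in BAT and 133 ± 48.8 CPM in WAT (log2 2.17, adjusted p = 1.79e-05), and BAT 4 was 0.795 times the other BAT libraries. Canx, the chaperone calnexin, and Tram2, which binds SERCA2b, were lower (log2 -0.77 and -1.98, adjusted p = 0.00233 and 0.0024). Tram2 passed the filter through WAT alone, and with any 1 WAT library left out it was not tested.

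Genes that make or answer to IP3 were also split. Of 24 tested, 11 were higher in BAT, 8 lower and 5 not called, where 30.7% of all genes tested were higher and 31.6% lower. Ahcyl1, whose product IRBIT competes with IP3 at its receptor, averaged 524 ± 150 CPM in BAT and 127 ± 5.07 CPM in WAT (log2 1.99, adjusted p = 2.18e-06). Itpka, a kinase that removes IP3, was higher at 9.21 ± 2.93 CPM in BAT and 0.688 ± 0.163 CPM in WAT (log2 2.99, adjusted p = 7.45e-06), and it too passed the filter through BAT alone. Plcg2 and Lrmp, both known from immune cells, were lower (log2 -2.52 and -2.57, adjusted p = 3.21e-06 and 3.78e-07), beside the lower macrophage and lymphocyte marker sums in BAT. The part of immune cells in these values was not tested.

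Of 15 genes of mitochondrial calcium uptake and release, 12 were higher in BAT, 2 lower and 1 not called (median log2 1.33, and 1.16 with 11 higher without BAT 4). On deposited RPKM, with its shift of the median gene, 2 were higher and 6 lower. Letm1, an exchanger of the inner membrane, averaged 598 ± 149 CPM in BAT and 66.1 ± 6.22 CPM in WAT (log2 3.14, adjusted p = 2.51e-08). Hspa9, which links IP3 receptors to the outer membrane channel, averaged 1599 ± 363 CPM in BAT and 299 ± 22.1 CPM in WAT (log2 2.39, adjusted p = 3.08e-07). The lower ones were Ccdc109b, an inhibitory subunit of the uniporter (log2 -2.96, adjusted p = 1.14e-05), and Slc8b1, which exchanges sodium for calcium (log2 -1.33, adjusted p = 1.24e-04). Of 14 calcium binding chaperones of the reticulum, 12 were lower in BAT, 1 higher and 1 not called (median log2 -0.81). Nucb2 and Rcn3 were lower (log2 -1.43 and -1.31, adjusted p = 1.84e-04 and 9.22e-05). Calr3 was higher (log2 0.98, adjusted p = 0.0375), a call lost without WAT 1, WAT 2, WAT 4, BAT 1, BAT 2 or BAT 4 (adjusted p = 0.0668 to 0.119) and also without TMM (adjusted p = 0.0822) or the filter (adjusted p = 0.0532). On deposited RPKM it turned to log2 -0.25 (adjusted p = 0.570).

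Of 10 pumps and exchangers of the plasma membrane and Golgi, 5 passed the filter and all 5 were lower in BAT (median log2 -1.40). Tmem165 and Slc8a1 were furthest down (log2 -2.08 and -1.86, adjusted p = 1.00e-06 and 3.85e-05). Without the filter 5 of 10 were lower, 1 higher and 4 not called (median log2 -0.65). Without BAT 2, 6 could be tested and 1 was higher. In store-operated entry, which refills the reticulum from outside, 1 of 8 was higher, 3 lower and 4 not called. Tmem110, a partner of STIM1, was the one that was higher (log2 2.04, adjusted p = 8.36e-07), while Stim2 and Orai2 were lower (log2 -0.66 and -1.38, adjusted p = 0.00368 and 0.0125). Among 20 calcium and calmodulin effectors 2 were higher, 7 lower and 11 not called. Mylk, the myosin light chain kinase, and Camk2b were higher (log2 0.93 and 1.08, adjusted p = 5.53e-04 and 0.0113), and Camk1d and Nfatc2 were lower (log2 -2.84 and -2.43, adjusted p = 1.40e-04 and 3.69e-04). On deposited RPKM, with its shift of the median gene, the medians of the IP3, mitochondrial, effector and triad lists were below 0 (log2 -1.26, -0.20, -1.48 and -0.11). On that scale Camk2b and Mylk turned to log2 -0.37 and -0.59, and S100a1, Ahcyl1 and Tmem110 kept their direction at log2 0.64, 0.46 and 0.53, all 5 without a call (adjusted p = 0.0697 to 0.401).

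Blebbistatin left no detectable change on these genes in the cells. Of the 6 tested, 0 were called, by limma, by edgeR's quasi-likelihood test and by DESeq2, and 0 had an unadjusted p under 0.05 in any of these. The background was low here too: 0.867% of 12808 genes tested were called, 0.133% higher and 0.734% lower with blebbistatin. The numbers of libraries and the spread allow a limit for each gene.

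Atp2a2 was the main pump of the cells, at 392, 382 and 378 CPM with blebbistatin and 376, 389 and 387 CPM with vehicle. The groups overlapped, and the fold was 1.00 with a 95% interval of 0.861 to 1.17 (log2 0.00, adjusted p = 0.997). Its reads inside the SERCA2b transcript were 94.9%, 94.4% and 93.3% with blebbistatin and 92.8%, 93.8% and 93.2% with vehicle, which overlapped. The transcript behind the Atp2a2 row of the cell count table is not given in the sources used here.

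Atp2a3 was more variable, at 40.2, 59.3 and 65.3 CPM with blebbistatin and 113, 75.2 and 50.1 CPM with vehicle. The groups overlapped, with the highest and the second highest value in vehicle libraries (log2 -0.48, SE 0.29, adjusted p = 0.591, fold interval 0.447 to 1.15). The authors' deposited edgeR table gives log2 -0.535 (unadjusted p = 0.0382, adjusted p = 0.597). Atp2a1 was a trace, at 0.699, 0.897 and 1.02 CPM with blebbistatin and 0.944, 1.92 and 1.60 CPM with vehicle, on 9 to 12 reads with blebbistatin and 10 to 27 with vehicle. These overlapped as well (log2 -0.51, SE 0.26, adjusted p = 0.5004, fold interval 0.460 to 1.07). The fast muscle markers summed to 3.36 to 5.09 CPM with blebbistatin and 6.23 to 7.25 CPM with vehicle, with Myh2, Ckm and Tnni2 at 0 in all 6 libraries.

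The IP3 receptors were all present in the cells. Itpr1 read 177, 193 and 175 CPM with blebbistatin and 188.5, 191 and 211 CPM with vehicle (log2 -0.11, adjusted p = 0.739, fold interval 0.787 to 1.08). Itpr2 read 105, 126 and 119 CPM with blebbistatin and 128, 109 and 101 CPM with vehicle (log2 0.06, adjusted p = 0.914, fold interval 0.854 to 1.27). Itpr3 read 120, 100 and 84.4 CPM with blebbistatin and 62.1, 86.0 and 110 CPM with vehicle (log2 0.26, adjusted p = 0.715, fold interval 0.852 to 1.69). In each case the groups overlapped. As a share of the family RPKM, Itpr1 made up 44.6% to 47.7% with blebbistatin and 50.6% to 51.7% with vehicle, which did not overlap, and this share, set by all 3 genes, has no test here.

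Release channels of muscle were near or below detection in the cells. Ryr1 had 3, 1 and 1 reads with blebbistatin and 1, 4 and 6 reads with vehicle. Ryr3 had 3, 0 and 5 reads with blebbistatin and 3, 3 and 2 with vehicle. Ryr2 had 2 reads in all, both in vehicle 2, and Sln had 2 reads in all, both in blebbistatin 3. No difference in these 4 genes was detectable at this depth. Smooth muscle markers did move in the same cells, with 5 of 8 tested called lower and sums of 59.8 to 89.1 CPM with blebbistatin against 339 to 497 CPM with vehicle.

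On all 9 surrounding lists, 0 genes were called in the cells by limma, among them 10 of the ryanodine receptor complex, 22 of IP3 production, 14 reticulum chaperones and 15 mitochondrial genes. The list medians ran from log2 -0.26 for the chaperones to 0.17 for the plasma membrane and Golgi pumps, against 0.01 over all genes tested.

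**Figure D5:**
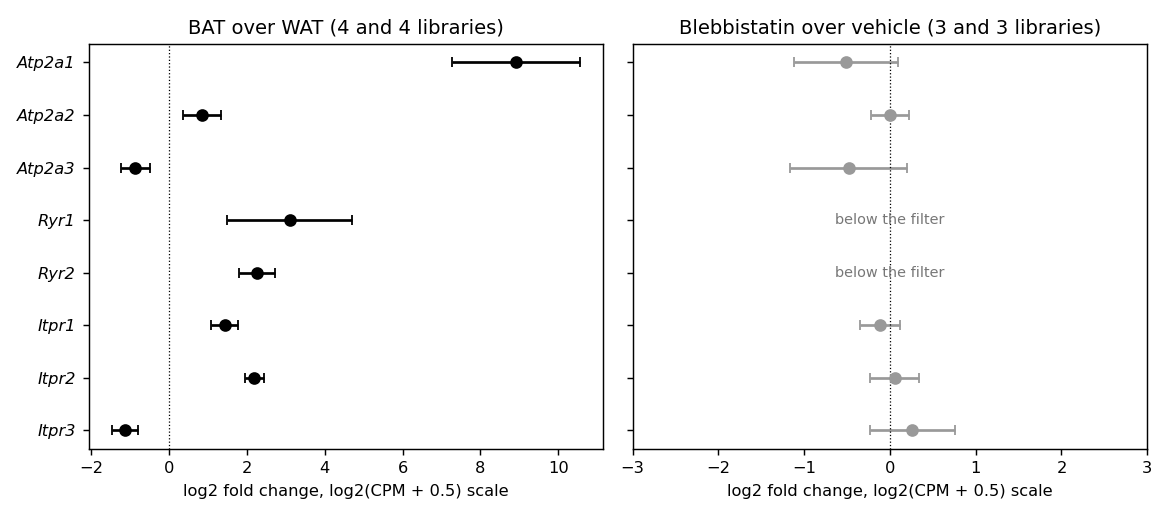
Log2 fold change of each tested gene with its 95% interval, BAT over WAT on the left and blebbistatin over vehicle on the right, each panel on its own axis. Black points were called and grey points were not; all 8 tissue intervals leave out 0 and all 6 cell intervals include it.

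Per length, and with the tables of tissue and cells scaled separately so that no test applies, the cells can be set beside both tissues. Mean Atp2a1 RPKM was 96.0 in BAT, 0.162 in WAT, 0.202 with blebbistatin and 0.345 with vehicle. Mean Itpr3 RPKM was 0.546 in BAT, 3.28 in WAT, 9.17 with blebbistatin and 7.58 with vehicle. Mean Itpr1 RPKM was 4.29 in BAT, 4.30 in WAT, 14.8 with blebbistatin and 15.6 with vehicle, and Itpr1 led the IP3 receptors in the cells. Mean Ryr2 RPKM was 0.493 in BAT and 0.267 in WAT, and it was at or near 0 in the cells.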

How the data were processed

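The submitters' processing notes name STAR, HOMER, edgeR and the build mm9, all without a version. The authors deposited, for each experiment, a table of gene signal, in which each library's read counts had been multiplied by a constant so that libraries have equal totals. Dividing by the worth of 1 read gave whole reads again (within 0.1, for all values up to 1000 reads). The same tables hold the authors' log2 fold changes and the authors' p-values. A second deposited pair of tables holds RPKM, scaled to exon length and mapped reads per the file headers, with 1 transcript per gene. A deposited sheet of myosin genes was not used, and 3 further libraries named in a header were not analysed here.

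Since the values are scaled counts, the test was limma (trend, robust) on log2(CPM + 0.5) with TMM, group as the only term, each experiment fitted alone. EdgeR's filterByExpr kept genes (minimum count 10, minimum total 15). P-values were adjusted over all genes by Benjamini-Hochberg and called under 0.05. Intervals are 95%. The fit was tested on simulated data. Alternatives were edgeR's quasi-likelihood test, DESeq2, no TMM, RPKM (pseudocount 0.1), RPKM centred on library medians, pseudocount 2, no filter, a replicate block and leaving out each library. The fits were run with limma 3.58.1, edgeR 4.0.16 and DESeq2 1.42.0 in R 4.3.3.

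The 10 genes and all lists were chosen with earlier results of these data known. From each list up to 2 called genes with the largest rise and 2 with the largest fall are named, and for each gene the 3 with the nearest centred log2 profile over the 8 tissue libraries. After the data were seen, 2 mistaken symbols were dropped from the lists, and the Atp2a2 transcript comparison and the fit without BAT 3 and BAT 4 were added. Reads inside NM_001110140 were computed from the deposited RPKM, its length and the mapped reads implied by other genes.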

Additional observations from a re-analysis of the deposited data

Results flagged for a closer look

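In BAT 4, 3 genes stood far above the other 3 BAT libraries, by Dixon's criterion for the gap to the nearest value. Atp2a1 was at 3533 CPM in BAT 4 and at 238 to 421.5 CPM in the other BAT libraries, with the gap taking 0.944 of the range. Ryr1 was at 228 CPM in BAT 4 and at 17.6 to 24.3 CPM in the others, with 0.968 of the range. Atp2a2 was at 480 CPM in BAT 4 and at 208 to 254 CPM in the others, with 0.832 of the range, just past the critical value for 4 libraries. These were 3 of 18 groups checked. The criterion marks about 5% of independent groups by chance, but these groups share libraries. BAT 4 had also been singled out beforehand for its muscle transcripts, so the count is a description only. The fast muscle markers were raised in the same library by 6.34 to 12.3 times, and their part in these values was not tested.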

How the results depend on the processing

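Between the tissues, 4 of 8 tested genes were called on uncentred RPKM, where the median gene lay at log2 -1.51. There Atp2a2 turned to log2 -1.18 and Itpr1 to log2 -0.094, while Ryr1, Ryr2 and Itpr2 kept their direction and lost their call (log2 1.42, 0.66 and 0.65). Leaving out each library gave 8 to 9 of the genes called. DESeq2 gave no p for Atp2a1 and Ryr1. Of the called genes, 49.3% were higher in BAT in the main fit, 38.9% without TMM (median gene log2 -0.26), 8.11% on RPKM and 54.7% on centred RPKM.

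In the cells the number of genes called was 111, against 497 by DESeq2, 73 without TMM, 30 on RPKM and 13 to 321 with each library left out. Cell Atp2a2 changed sign by DESeq2 (log2 -0.0022), without vehicle 1 (-0.0119) and without blebbistatin 1, and ranged from -0.0176 to 0.0119 with each library left out. Cell Itpr2 changed sign without vehicle 3 and without blebbistatin 2 (-0.0049), and ranged from -0.0171 to 0.153. The cause of these changes was not tested. A member had an unadjusted p under 0.05 in 1 case without vehicle 1 and 1 without vehicle 3.

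Replicate numbers did not pair the libraries: same-numbered deviations correlated at -0.0369, -0.00273, -0.0162 and 0.0736 in the tissues and at -0.49, 0.318 and -0.258 in the cells. With a replicate block 7656 tissue genes and 8 members were called, and 30 cell genes. Depth limits Sln, Ryr3 and the low counts of BAT 3.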
